A study of Mus musculus with 12 samples.

Results

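Sox10, Erbb3, Erbb2, Ngfr, Cnp, Cd9, Gfra1 and S100b are 8 genes of the path from neural crest to glia, and their RNA was followed in mouse melanoma cells given FoxD3 or a version of it with an exchanged effector domain. The members were taken by name: 18 of the 34945 probe sets with 1 gene symbol belonged to these 8 of 18193 genes. B16-F10 is an established, pigmented mouse melanoma line, here 1 line grown in culture. Every group was transfected with the vector pMES, in which the chick beta-actin promoter drives both the insert and EGFP. The controls received empty pMES, the second group pMES with chicken FoxD3, and the third pMES with FoxD3-VP16, in which an activation domain from VP16, a herpesvirus protein, stands in place of the repression domain at the C-terminus. All 3 groups consist of EGFP-positive cells sorted 24 h after transfection, with 4 arrays in each, numbered 1 to 4 in the titles. Whether each number is a culture of its own is not said in the labels; the p-values therefore reflect only how these arrays spread, which may be technical.

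FoxD3 belongs to the forkhead family of transcription factors and is made early in the neural crest, embryonic cells that give rise to melanocytes, peripheral glia and sensory neurons. Sox10, an HMG-box factor, is kept on in both the glial and the pigment lineage and is needed for each. Schwann cell precursors survive on neuregulin, which binds Erbb3; Erbb3 has little kinase activity and signals through its partner Erbb2. Ngfr is the low-affinity neurotrophin receptor p75, a surface marker of crest cells and immature Schwann cells. Gfra1 is the co-receptor that presents GDNF to Ret. Cnp is a membrane-bound enzyme of myelinating glia, Cd9 a tetraspanin of the surface of Schwann and many other cells, and S100b a calcium-binding protein used to stain glia and melanocytic tumours.

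Of the markers of the labelled cell type, 12 of 12 melanocyte genes had a mean above the brightness limit with the empty vector, where the limit is a log2 level of 5.98, under which the dimmest 40% of genes lie. Their summed linear level was 183800 to 205800 with the empty vector, 162300 to 174500 with FoxD3 and 173300 to 187900 with FoxD3-VP16. Of 11 tested, 0 rose and 1 fell with FoxD3, Mitf (1 and 5 with the block). With FoxD3-VP16 0 changed (1 higher and 2 lower with the block). Of 4 tested genes that define Schwann cells (Cdh19, Mbp, Pmp22 and S100b itself), 0 rose with either construct (1 with the block with each), 1 fell with FoxD3, and 1 had an unadjusted p under 0.05 in limma in each comparison with the empty vector; the 8 genes are therefore called glial by their known roles and not by a cell type seen here. Levels are log2(intensity + 16) after quantile normalization, changes are differences of group means on that scale, and "rose", "fell" and "changed" are used for a limma adjusted p under 0.05 over 10916 genes, each represented by its brightest probe set. Arrays with the same number deviated together, so some values are also given from a fit with the replicate number as a block. In several members an array numbered 1 lay apart from the others. Before quantile normalization the arrays numbered 1 also had a higher array-wide median than all other arrays. The deviations in the members remained after that normalization, and whether they are specific to these genes was not tested. The transgenes are chicken sequences, and the mouse Foxd3 probe set, at a mean log2 level of 4.71, does not check the labels.

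With FoxD3, 5 of the 8 genes rose and 0 fell: Sox10, Erbb3, Ngfr, Cnp and Cd9. Over all tested genes 2.89% rose and 1.12% fell. With FoxD3-VP16 0 of the 8 rose and 1 fell, Sox10, where 0.522% of all tested genes rose and 0.0733% fell; with the block 1 rose (S100b) and 2 fell (Sox10 and Erbb3), where 5.73% and 5.41% of all genes did. Between the constructs, Sox10, Erbb3, Ngfr and Cnp were lower with FoxD3-VP16 than with FoxD3, and 0 members were higher, where 5.13% of all tested genes were lower and 4.44% higher; with the block Cd9 was also lower (17.5% of all genes) and S100b higher (14.6%). On the level of single arrays, 5 members lay above the empty vector without overlap with FoxD3 (6.77% of all genes did), 2 below it with FoxD3-VP16 (2.44%), and between the constructs 5 lay below (10.1%) and 1 above (8.05%). The median log2 change of the 8 members was 0.77 with FoxD3, 0.28 with FoxD3-VP16 and -1.01 between the constructs, beside -0.004, -0.02 and -0.03 over all tested genes. These counts are a description, because the members were chosen with earlier results known, and because Ngfr passed the brightness limit only through its level with FoxD3 and Gfra1 only through its level with FoxD3-VP16. Fibroblast markers also moved with FoxD3: the summed linear level of 10 markers was 879 to 1246 with the empty vector, 1881 to 2951 with FoxD3 and 1400 to 1792 with FoxD3-VP16. Of 6 tested, Col1a1, Pdgfrb and Col5a1 rose with FoxD3 and Pdgfrb with FoxD3-VP16, and of the 10 markers Col1a2, Col5a1, Fap, Pdgfra and Pdgfrb were above the brightness limit in every group, Col1a1 with both constructs, and Col3a1, Dcn, Lum and Thy1 in none; their part in the rise of the members was not tested. In a bulk sample, fewer cells of a type and less RNA per cell cannot be told apart. The 2 comparisons against the empty vector share its 4 arrays.

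**Figure D1:**
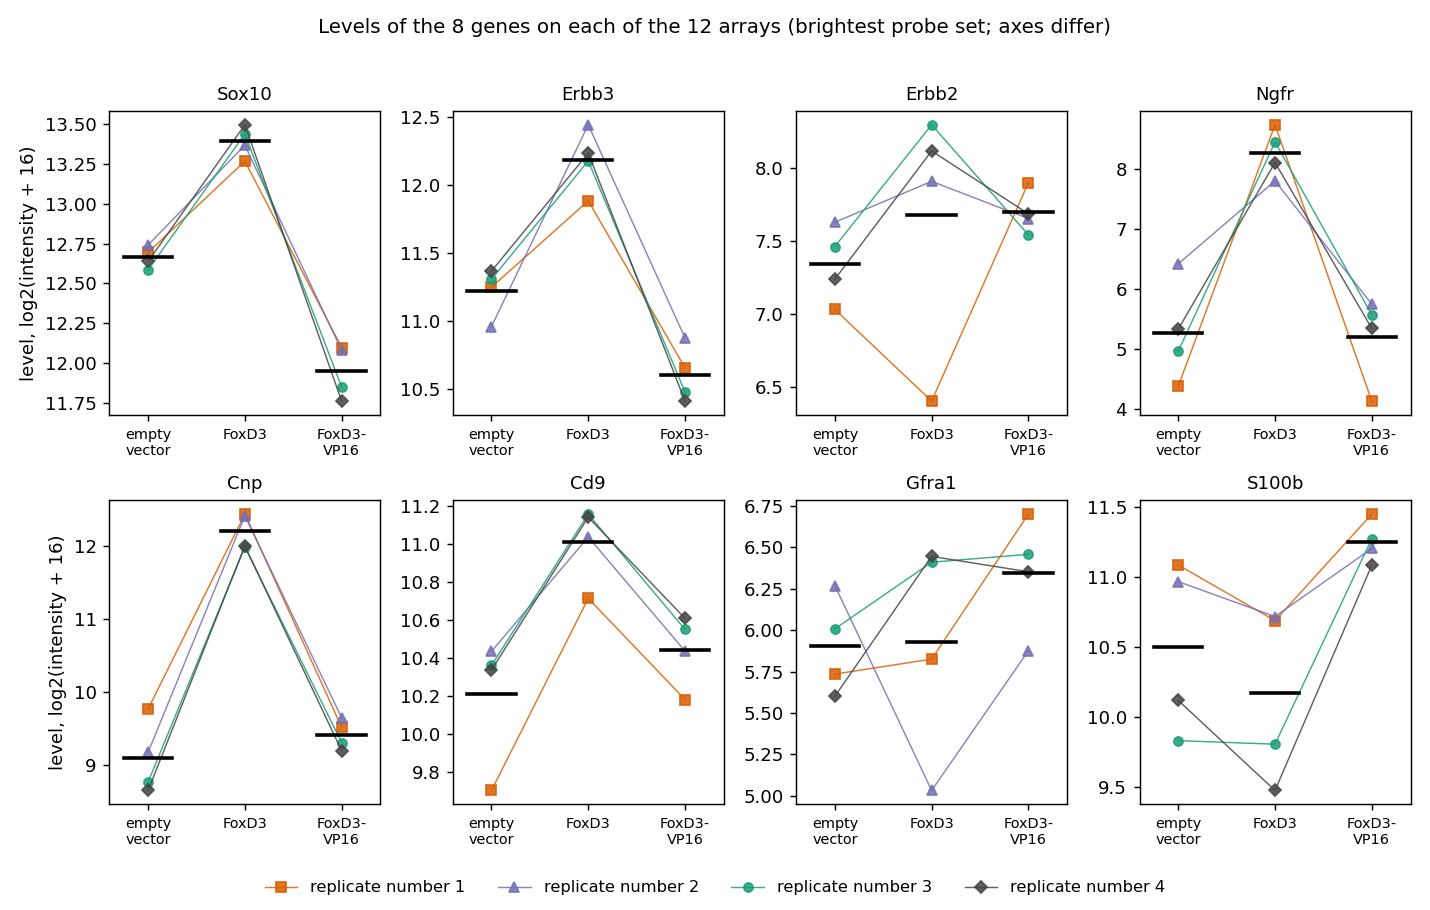
Level of each of the 8 genes, as log2(intensity + 16) of its brightest probe set, on the 12 arrays in the 3 transfections; each coloured line joins the arrays with the same replicate number and each black bar is the mean of 4 arrays. Sox10, Erbb3, Ngfr, Cnp and Cd9 peak with FoxD3, and S100b is high on all 4 arrays with FoxD3-VP16; the vertical axes differ between genes and do not start at 0.

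The 250 bases before the start of transcription are shown for the 3 members that rose with FoxD3 and have an entry in the RefSeq promoter table (build GRCm38.p6), and for S100b, the member with the opposite order of levels; Sox10 and Erbb3 have no entry. They run 5′ to 3′ on the strand of the gene, and capitals mark a match to 1 of the 5 motifs searched on both strands. The motifs were the forkhead core TGTTTAC, its shorter form TGTTT, which the first contains, the SOX cores ACAAAG and ACAAT, and the E-box CACGTG. Cnp lies at chr11:100574689-100574938 (plus strand), Ngfr at chr11:95587699-95587948 (minus strand), Cd9 at chr6:125494761-125495010 (minus strand) and S100b at chr10:76253586-76253835 (plus strand).
Cnp: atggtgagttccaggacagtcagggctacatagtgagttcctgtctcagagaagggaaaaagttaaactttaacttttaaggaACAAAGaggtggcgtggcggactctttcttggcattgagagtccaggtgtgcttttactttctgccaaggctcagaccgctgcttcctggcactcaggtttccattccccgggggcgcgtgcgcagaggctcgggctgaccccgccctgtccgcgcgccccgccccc
Ngfr: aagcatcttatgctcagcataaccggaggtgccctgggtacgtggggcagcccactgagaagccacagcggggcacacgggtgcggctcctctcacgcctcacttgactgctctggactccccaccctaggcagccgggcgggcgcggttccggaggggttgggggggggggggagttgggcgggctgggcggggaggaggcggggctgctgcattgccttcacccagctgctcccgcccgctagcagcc
Cd9: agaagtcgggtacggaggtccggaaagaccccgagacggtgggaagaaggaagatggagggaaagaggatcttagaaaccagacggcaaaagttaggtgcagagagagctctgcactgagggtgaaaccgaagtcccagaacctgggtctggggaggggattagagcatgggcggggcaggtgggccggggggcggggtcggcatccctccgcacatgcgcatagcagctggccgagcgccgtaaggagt
S100b: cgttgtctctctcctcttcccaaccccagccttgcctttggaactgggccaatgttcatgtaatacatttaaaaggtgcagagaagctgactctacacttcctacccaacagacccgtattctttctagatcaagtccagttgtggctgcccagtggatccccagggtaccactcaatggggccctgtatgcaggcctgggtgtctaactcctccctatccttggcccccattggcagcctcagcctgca
In these 4 windows the only match was ACAAAG in Cnp, from 167 to 162 bases before the start; 16.5% of the 32851 windows of the same length in the table hold it on either strand. The forkhead cores TGTTTAC and TGTTT, held by 3.17% and 46.4% of all windows, had no match in the 4, and neither had ACAAT (27.7%) or CACGTG (6.02%). The windows of Ngfr, with 70.4% G and C, and Cd9, with 61.6%, were richer in G and C than the median window of the table (52.4%), as was that of Cnp (57.2%) and, by little, that of S100b (53.6%). Of the other members, Erbb2 had no match either, and Gfra1 held TGTTT at 2 places that share 1 base, and ACAAT at 1.

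Sox10 held the middle level with the empty vector, the highest with FoxD3 and the lowest with FoxD3-VP16. The log2 levels of its brightest probe set, 1451689_a_at, on the arrays numbered 1 to 4 were 12.70, 12.74, 12.59 and 12.64 with the empty vector, 13.27, 13.37, 13.44 and 13.50 with FoxD3, and 12.10, 12.08, 11.85 and 11.76 with FoxD3-VP16. No array of 1 group fell within the range of another, and the spread within a group (SD 0.07, 0.10 and 0.17, n = 4 each) was small beside the steps between them. The step was of nearly the same size in both directions: 0.73 with FoxD3 (95% interval 0.48 to 0.97) and -0.72 with FoxD3-VP16 (-0.96 to -0.47). As deposited, the median linear intensity went from 6501 with the empty vector to 10551 with FoxD3 and 3982 with FoxD3-VP16. Between the constructs Sox10 differed 2.72-fold (log2 change -1.45, SE 0.11, adjusted p = 1.52e-05) and was lower with FoxD3-VP16 at each of the 4 numbers.

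The 3 probe sets of Sox10, of which the brightest gives the values above, had the same order of group means. The second, 1424985_a_at, had changes of 0.87 with FoxD3 and -0.82 with FoxD3-VP16, and in the limma fit over 20967 probe sets it passed for neither (adjusted p = 0.141 and 0.357). Its array numbered 1 of the empty vector stood at 10.59, above the 3 others at 9.61 to 9.74. With the block it passed for both (adjusted p = 0.00771 and 0.0215), and between the constructs it passed in both fits (-1.69; adjusted p = 0.00252 without the block). The dimmest, 1425369_a_at, had changes of 0.75 and -0.37 (adjusted p = 0.355 and 0.883) and of -1.12 between the constructs (0.0658; 0.0262 with the block). The fall of Sox10 with FoxD3-VP16 was the less firm of its 2 calls. It was lost when all 3 probe sets were averaged (adjusted p = 0.193), when only the 2 groups were fitted (0.0765), and without array 3 or 4 of either the empty vector or FoxD3-VP16 (0.0539 to 0.0968). The rise with FoxD3 passed in 23 of 23 alternatives.

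Erbb3, the neuregulin receptor and a gene that Sox10 is known to activate, had the same order of levels. Its probe set 1434606_at measured 11.25, 10.96, 11.31 and 11.37 with the empty vector, 11.88, 12.44, 12.18 and 12.23 with FoxD3, and 10.65, 10.87, 10.47 and 10.41 with FoxD3-VP16. The 3 groups did not overlap, although array 2 of the empty vector lay only 0.08 above array 2 of FoxD3-VP16. The rise with FoxD3 was 1.95-fold (0.97, SE 0.16, adjusted p = 0.00367). The difference with FoxD3-VP16 was -0.62 (95% interval -0.96 to -0.28), which did not pass without the block (adjusted p = 0.135) and passed with it (0.0131). Between the constructs Erbb3 differed 2.99-fold (-1.58, SE 0.16, adjusted p = 8.56e-05). Its other probe set, 1452482_at, was near the floor of the scale, with group means of 4.34 to 4.58, and was not tested. With the mean of both probe sets in place of the brighter one, the change with FoxD3 was 0.50 and did not pass (adjusted p = 0.170).

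Erbb2, the kinase partner of Erbb3, passed in none of the 3 comparisons. The levels of 1424919_at were 7.03, 7.63, 7.46 and 7.24 with the empty vector, 6.40, 7.91, 8.29 and 8.11 with FoxD3, and 7.90, 7.65, 7.54 and 7.68 with FoxD3-VP16. With FoxD3, array 1 was the lowest of all 12 while arrays 2 to 4 were the highest of all 12. The change was 0.34 (95% interval -0.42 to 1.10, adjusted p = 0.739). Without the 3 arrays numbered 1 it was 0.71 and passed (adjusted p = 0.0431), and with array weights it was 0.85 (0.00053). These settings also raised the calls over all genes, from 438 to 870 and 4193. Without array 1 of FoxD3 alone the change was 0.78 and did not pass in limma (adjusted p = 0.0876). The call thus depended on how the arrays numbered 1 were treated. Between the constructs the change was 0.01 (-0.75 to 0.78) and turned to -0.51 without the arrays numbered 1 (adjusted p = 0.0816).

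Ngfr, the p75 receptor, was near the floor of the scale without FoxD3 and clearly measured with it. Its probe set 1454903_at stood at 4.38, 6.42, 4.96 and 5.33 with the empty vector, at 8.73, 7.80, 8.45 and 8.10 with FoxD3 and at 4.13, 5.75, 5.57 and 5.34 with FoxD3-VP16. The 4 arrays with FoxD3 lay above the 8 others by at least 1.38. In deposited linear intensity the empty-vector arrays ranged from 6.72 to 61.6, those with FoxD3 from 209 to 386 and those with FoxD3-VP16 from 3.20 to 34.1. The difference between FoxD3 and the empty vector was 3.00 (SE 0.47, adjusted p = 0.00287), from 1.38 for the arrays numbered 2 to 4.36 for those numbered 1. Its size moved with the pseudocount, from 2.00 with 64 to 3.88 with 1, and it passed in all 21 alternatives in which it was tested. Ngfr was too dim to be tested with the mean of all probe sets and with the dimmest 60% left out. Because Ngfr passed the brightness limit only through its level with FoxD3, its calls are a description. With FoxD3-VP16 the change was -0.07 (95% interval -1.08 to 0.93, adjusted p = 0.989), and changes inside this interval are not excluded. Between the constructs it was -3.07 (SE 0.47, adjusted p = 0.00123). The other probe sets of Ngfr, 1450177_at and 1421241_at, were too dim to be tested; the first had the same order of group means (5.37 with FoxD3, 4.59 with the empty vector, 4.30 with FoxD3-VP16) and the second did not (4.59, 4.81 and 4.51).

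Cnp, the myelin enzyme, rose with FoxD3 in all 23 alternatives. The levels of 1437341_x_at were 9.76, 9.17, 8.76 and 8.64 with the empty vector, 12.44, 12.41, 11.99 and 12.0003 with FoxD3, and 9.51, 9.64, 9.30 and 9.19 with FoxD3-VP16. The FoxD3 arrays stood far above all others, while the ranges of the other groups overlapped. The rise was 8.73-fold (3.13, 95% interval 2.63 to 3.63, adjusted p = 2.08e-05), and within numbers it ran from 2.68 to 3.36. With FoxD3-VP16 the change was 0.33 (-0.17 to 0.83, adjusted p = 0.737). The probe set used ends in _x_at, a mark of probes that may also match other transcripts. The others, 1418980_a_at and 1449296_a_at, are of the kind that share a sequence among transcripts of 1 gene, and both rose with FoxD3 too, by 2.41 (adjusted p = 0.00616) and 2.70 (0.0431) in the fit over probe sets. In 1418980_a_at array 1 with FoxD3 stood at 10.76, above the 3 others at 9.31 to 9.47. The changes of these 2 with FoxD3-VP16, 0.04 and 0.68, did not pass.

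Cd9, the tetraspanin, rose with FoxD3 by about as much as Sox10. Its probe set 1416066_at measured 9.70, 10.43, 10.36 and 10.34 with the empty vector, 10.71, 11.03, 11.15 and 11.14 with FoxD3, and 10.18, 10.43, 10.55 and 10.61 with FoxD3-VP16. In each group the array numbered 1 was the lowest, and the FoxD3 arrays lay above all others. The rise with FoxD3 was 1.74-fold (0.80, SE 0.18, adjusted p = 0.0279), higher in 4 of 4 pairs. This call was lost without array 3 or 4 of the empty vector or array 2, 3 or 4 of FoxD3 (adjusted p = 0.0527 to 0.0988), with the values as deposited (0.0564) and with only the 2 groups fitted (0.0653). Between the constructs the difference was nearly constant within numbers, from -0.53 to -0.61 (mean -0.57). It missed the threshold without the block (adjusted p = 0.0713) and passed with it (0.000747), and also without array 1 of the empty vector (0.0267) or of FoxD3 (0.0499).

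S100b had the reverse order of group means, lowest with FoxD3 and highest with FoxD3-VP16. The levels of 1434342_at were 11.09, 10.97, 9.83 and 10.12 with the empty vector, 10.69, 10.72, 9.81 and 9.48 with FoxD3, and 11.45, 11.21, 11.28 and 11.09 with FoxD3-VP16. With the empty vector and with FoxD3, the arrays numbered 1 and 2 stood above those numbered 3 and 4, while with FoxD3-VP16 all 4 lay within a narrow range (SD 0.15, against 0.62 and 0.63). The change with FoxD3-VP16 was thus 0.36 and 0.24 for numbers 1 and 2 but 1.44 and 0.97 for numbers 3 and 4. Its mean of 0.75 (95% interval 0.06 to 1.45) did not pass without the block (adjusted p = 0.429) and passed with it (0.0192). Between the constructs the groups did not overlap and the difference of 1.08 (0.38 to 1.78) missed the threshold without the block (adjusted p = 0.0526), passing with it (0.000539) and in 9 of 23 alternatives in all, among them those without array 1 or 3 of the empty vector or array 1 or 2 of FoxD3 (adjusted p = 0.0372 to 0.0426). With FoxD3 the level was lower in 4 of 4 pairs, with a mean change of -0.33 that passed in neither fit (adjusted p = 0.719; 0.214 with the block). The second probe set, 1419383_at, had changes of -0.16, 0.69 and 0.85 in the 3 comparisons, in the order FoxD3, FoxD3-VP16 and between the constructs. Of these the last had an adjusted p of 0.295 without the block and 0.0083 with it.

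Gfra1, the GDNF co-receptor, was dim throughout, and of its 3 probe sets only the brightest was tested, which passed in none of the 3 comparisons. This one, 1439015_at, ranged from 5.60 to 6.27 with the empty vector, from 5.03 to 6.45 with FoxD3 and from 5.88 to 6.70 with FoxD3-VP16, and these ranges overlapped. Its changes were 0.03 (95% interval -0.76 to 0.81), 0.44 (-0.34 to 1.23) and, between the constructs, 0.42 (-0.37 to 1.20). Changes inside these intervals are not excluded for this gene.

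**Figure D2:**
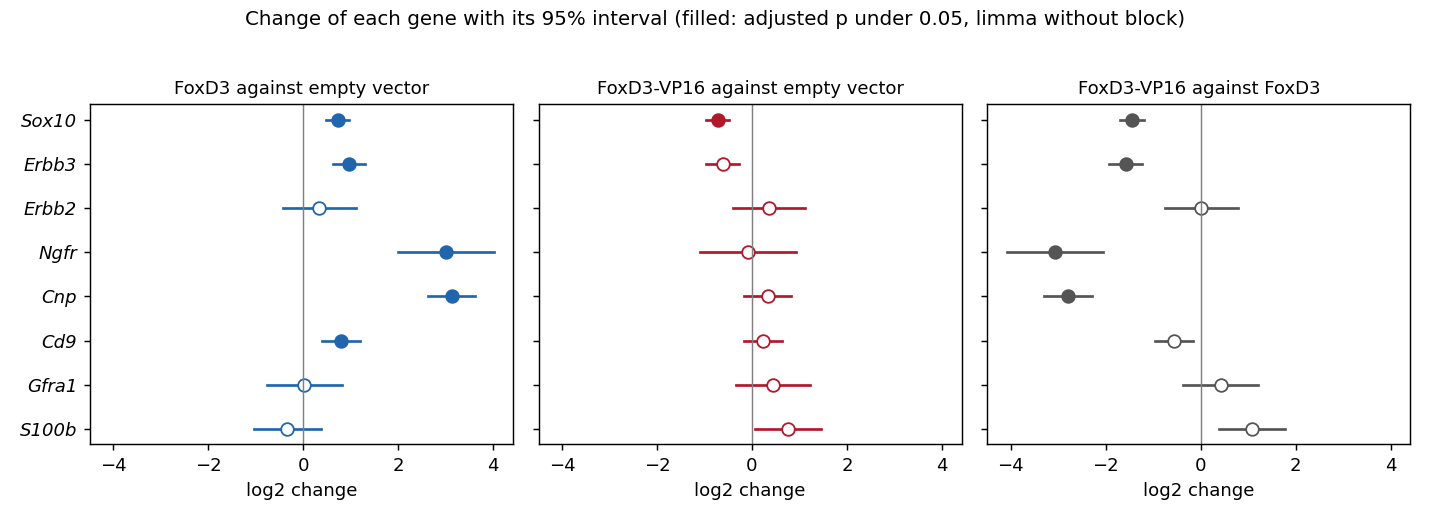
Log2 change of each gene in the 3 comparisons, from the limma fit over all 12 arrays without a block; bars are 95% intervals, filled points have an adjusted p under 0.05, and the axis is shared. Sox10, Erbb3, Ngfr and Cnp are filled on the right with FoxD3 and on the left between the constructs, and Sox10 is the one filled point for FoxD3-VP16 against the empty vector.

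Of the 18 member probe sets, 13 were bright enough for the fit over probe sets. With FoxD3 7 of these rose and 0 fell, where 1.75% and 0.730% of all probe sets did, and they belonged to the 5 genes named above. With FoxD3-VP16 1 fell (0.0191% of all) and 0 rose (0.281%). Between the constructs 6 were lower (3.38%) and 0 higher (3.33%). With the block 8, 4 and 11 probe sets changed in the 3 comparisons, where 14.3%, 6.75% and 24.4% of all probe sets did. Probe sets of 1 gene share a transcript and are not independent.

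**Figure D3:**
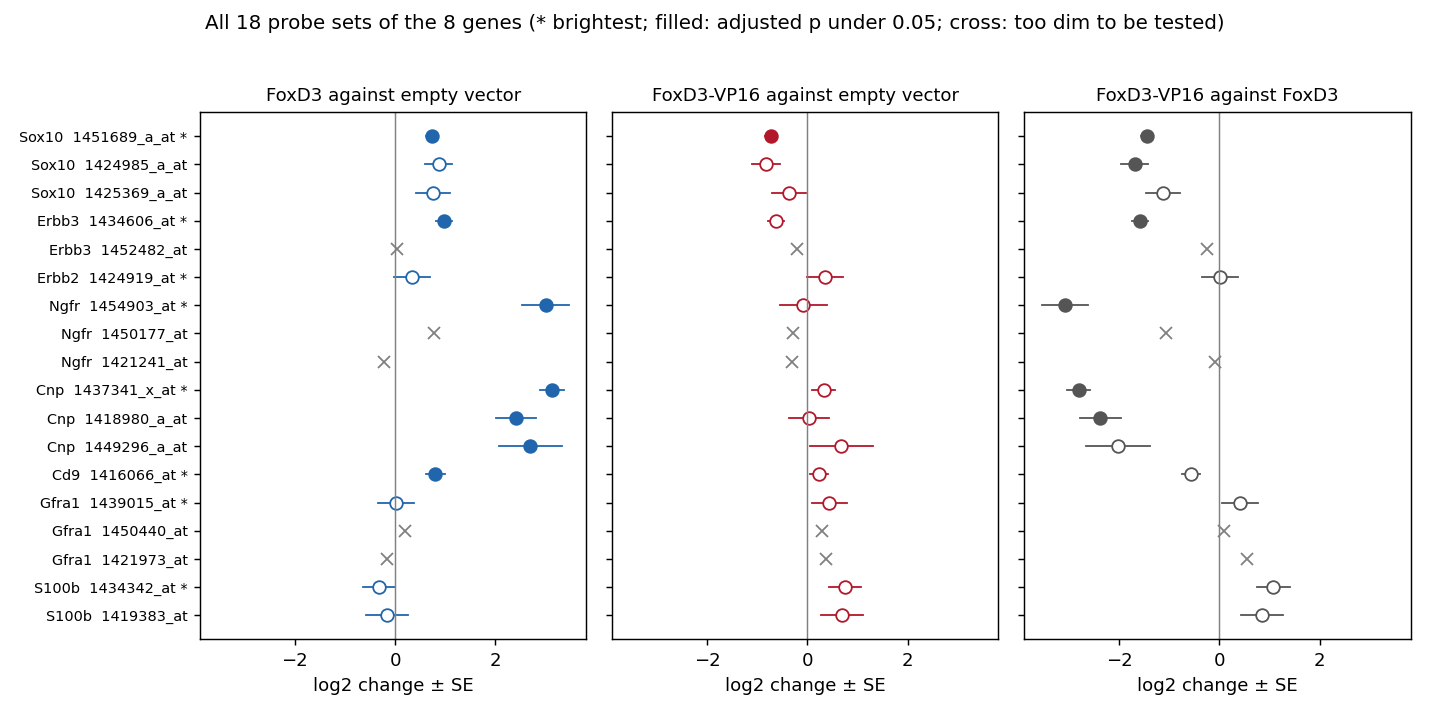
Log2 change ± SE of all 18 probe sets of the 8 genes in the 3 comparisons; an asterisk marks the brightest of a gene, filled points passed the limma fit over probe sets without a block, and grey crosses were too dim to be tested. The 3 probe sets of Cnp and the 3 of Sox10 lie on the right with FoxD3, where the dim probe sets of Erbb3 and Ngfr lie nearer to 0 than the tested ones.

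The pathways of these receptors were followed in 8 lists holding 165 genes, of which 103 were bright enough to be tested; the 8 members are left out of these lists, so no list count includes Erbb3 as a Sox10 target or Cnp as a myelin gene. Against the background shares of called genes given above, the block raised the calls over all genes to 11.8% higher and 9.21% lower with FoxD3, so the lists' counts with the block are read against those, and against 5.73% and 5.41% with FoxD3-VP16 and 14.6% and 17.5% between the constructs. Among 18 tested genes of the ErbB and neuregulin pathway 1 rose with FoxD3 and 0 fell (median -0.08; 2 and 2 with the block). It was Rhbdf1, an inactive rhomboid protein that controls shedding of EGF family ligands, at 10.58, 10.66, 10.54 and 10.68 with the empty vector and 11.69, 12.05, 12.09 and 12.07 with FoxD3 (1.36, SE 0.13, adjusted p = 0.000159). With FoxD3-VP16 0 changed in limma without the block (median 0.00), 4 had an unadjusted p under 0.05 and 2 rose with the block; Rhbdf1 had a change of -0.10 and Shc1 of 1.03 (adjusted p = 0.0804; 0.00112 with the block). Between the constructs Rhbdf1 (-1.46) and the EGF receptor ligand Hbegf (-1.24, adjusted p = 0.0287) were lower, and the adaptor Shc1, which couples ErbB receptors to Ras, was higher (1.16, adjusted p = 0.00704); with the block 5 were higher and 4 lower. Egfr had changes of 0.20 and 0.70 against the empty vector and did not pass. The neuregulin gene Nrg1 and the receptor Erbb4 had means of 4.72 and 4.45, under the limit, and were not tested.

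In the neurotrophin pathway 2 of 13 tested genes rose with FoxD3 and 0 fell (median -0.03): Ntf5, the gene of neurotrophin-4 (1.76, adjusted p = 0.0276), and Nradd, a membrane protein with a death domain related to that of Ngfr (1.29, adjusted p = 0.00287). With FoxD3-VP16 0 of the 13 changed (median 0.12; 2 with an unadjusted p under 0.05 in limma, and 1 higher and 1 lower with the block). Between the constructs Nradd was lower (-0.95, adjusted p = 0.00939; 2 higher and 2 lower with the block), and Ntf5 had a change of -1.16 that missed the threshold (adjusted p = 0.0928; 0.0156 with the block). Ntrk2, the BDNF and neurotrophin-4 receptor, and Sort1, which pairs with Ngfr to bind pro-neurotrophins, had changes of 0.40 and -0.24 with FoxD3 and did not pass. Ntrk3 had a mean of 5.26 and was not tested.

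Of 5 tested genes of the GDNF family pathway 2 rose with FoxD3 and 0 fell (median 0.34). They were the ligand neurturin, Nrtn, and Sdc3, a heparan sulphate proteoglycan that binds GDNF family ligands. Nrtn stood at 6.82, 7.01, 6.50 and 6.37 with the empty vector, 8.64, 8.32, 8.37 and 8.36 with FoxD3 and 5.55, 6.86, 6.23 and 6.23 with FoxD3-VP16. Its rise was 1.75 (SE 0.28, adjusted p = 0.00355) and the difference between the constructs -2.20 (adjusted p = 0.000387). Sdc3 rose by 1.25 (adjusted p = 0.0419), and its difference between the constructs was -1.32 (0.0184). With FoxD3-VP16 0 of the 5 changed (median -0.30; 1 with an unadjusted p under 0.05 in limma, and 1 lower with the block). The receptor Ret (mean 5.30) was too dim to be tested, and Gfra2 had changes of -0.24 and -0.30 with an SE of 0.72.

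Of the genes reported as direct Sox10 targets, taken with the other SoxE factors and without Erbb3, which rose, 9 were tested. Among these 0 rose and 2 fell with FoxD3 (median -0.66; 4 fell with the block), the Schwann precursor cadherin Cdh19 (-1.21, adjusted p = 0.0109) and Mitf, the regulator of pigment genes (-1.09, adjusted p = 0.00483). With FoxD3-VP16 0 changed (median 0.01; 1 with an unadjusted p under 0.05 in limma, and 1 lower with the block). Between the constructs 4 were higher and 0 lower (median 0.66): Cdh19 (1.07), the melanin enzyme Tyr (0.89), the glial connexin Gjc3 (0.89) and Mitf (0.66). Sox9 had a change of -0.66 with FoxD3 and did not pass (adjusted p = 0.479). Sox8 was under the limit with every vector (means 4.41, 5.44 and 4.22 for the empty vector, FoxD3 and FoxD3-VP16) and was not tested.

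Among 26 tested Schwann cell and precursor genes 4 rose and 2 fell with FoxD3 (median 0.10; 8 and 5 with the block). Notch1, which holds Schwann cells in the immature state (1.99, adjusted p = 0.000959), Dhh, a hedgehog ligand secreted by Schwann cells (1.69, adjusted p = 0.0151), the Notch target Hes1 (1.08, adjusted p = 0.0491) and the adhesion molecule Cadm4 (0.96, adjusted p = 0.00857) rose. Cdh19 and the crest factor Tfap2a fell, the latter (-0.95) named after its value was seen. With FoxD3-VP16 0 of the 26 changed (median -0.06; 2 with an unadjusted p under 0.05 in limma, and 1 higher and 2 lower with the block). Between the constructs 6 were lower and 2 higher (median -0.10; 9 and 5 with the block), and Notch1 (-2.12), Dhh (-1.60), Jun (-1.48), a factor of the repair Schwann cell, and Hes1 (-1.48) were the largest differences. Of the myelin genes Mbp and Pmp22, neither passed without the block. Mbp had a change of -0.23 with FoxD3 (SE 0.85) and differed mainly by number, from 12.03 to 12.59 on the 6 arrays numbered 1 and 2 and from 9.61 to 10.05 on those numbered 3 and 4. Pmp22 had a change of 0.67 (adjusted p = 0.361; 0.0300 with the block). Egr2, the driver of myelination, was under the limit on average (5.95; change -0.98 with FoxD3) and was not tested. Among 11 tested oligodendrocyte and myelin genes other than Cnp, which rose with FoxD3, 0 changed with either construct. With FoxD3 4 of them had an unadjusted p under 0.05 in limma, and with the block 3 rose and 2 fell; with FoxD3-VP16 both counts were 0. Between the constructs the kinase gene Fyn was higher (0.75, adjusted p = 0.0262; 2 higher and 1 lower with the block).

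Among 22 tested tetraspanins and partners, other than Cd9, 2 rose and 0 fell with FoxD3 (median 0.13; 8 and 1 with the block): Tspan33 (1.36, adjusted p = 0.039) and Tspan4 (0.70, adjusted p = 0.00818). Tspan33 passed the brightness limit only through its level with FoxD3 (means 6.14, 7.50 and 5.69 with the empty vector, FoxD3 and FoxD3-VP16), so its calls are a description. With FoxD3-VP16 0 changed (median 0.13; 4 with an unadjusted p under 0.05 in limma, and 3 higher with the block), among them Tspan12 at 1.13 (adjusted p = 0.0875; 0.00228 with the block). Between the constructs Tspan33 (-1.82) and Hbegf, a partner of Cd9 at the cell surface, were lower, and Tspan12 (1.39, adjusted p = 0.0049) and Tspan13 (0.89, adjusted p = 0.00296) higher; with the block 8 were lower and 2 higher. Cd81, a close relative of Cd9, had a change of 0.38 with FoxD3, higher in 4 of 4 pairs, and passed only with the block (adjusted p = 0.125 without it and 0.00396 with it). Of 7 other tested genes of the S100 list 0 changed with either construct (medians 0.37 and 0.13). With FoxD3 2 had an unadjusted p under 0.05 in limma and 2 rose with the block, and with FoxD3-VP16 1 and 0 did. Between the constructs S100pbp, which binds an S100 protein, was lower (-0.57, adjusted p = 0.0172; 2 lower with the block). S100a6 had a change of 1.13 with FoxD3, opposite in sign to S100b, with an adjusted p of 0.310 without the block and 0.0019 with it.

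**Figure D4:**
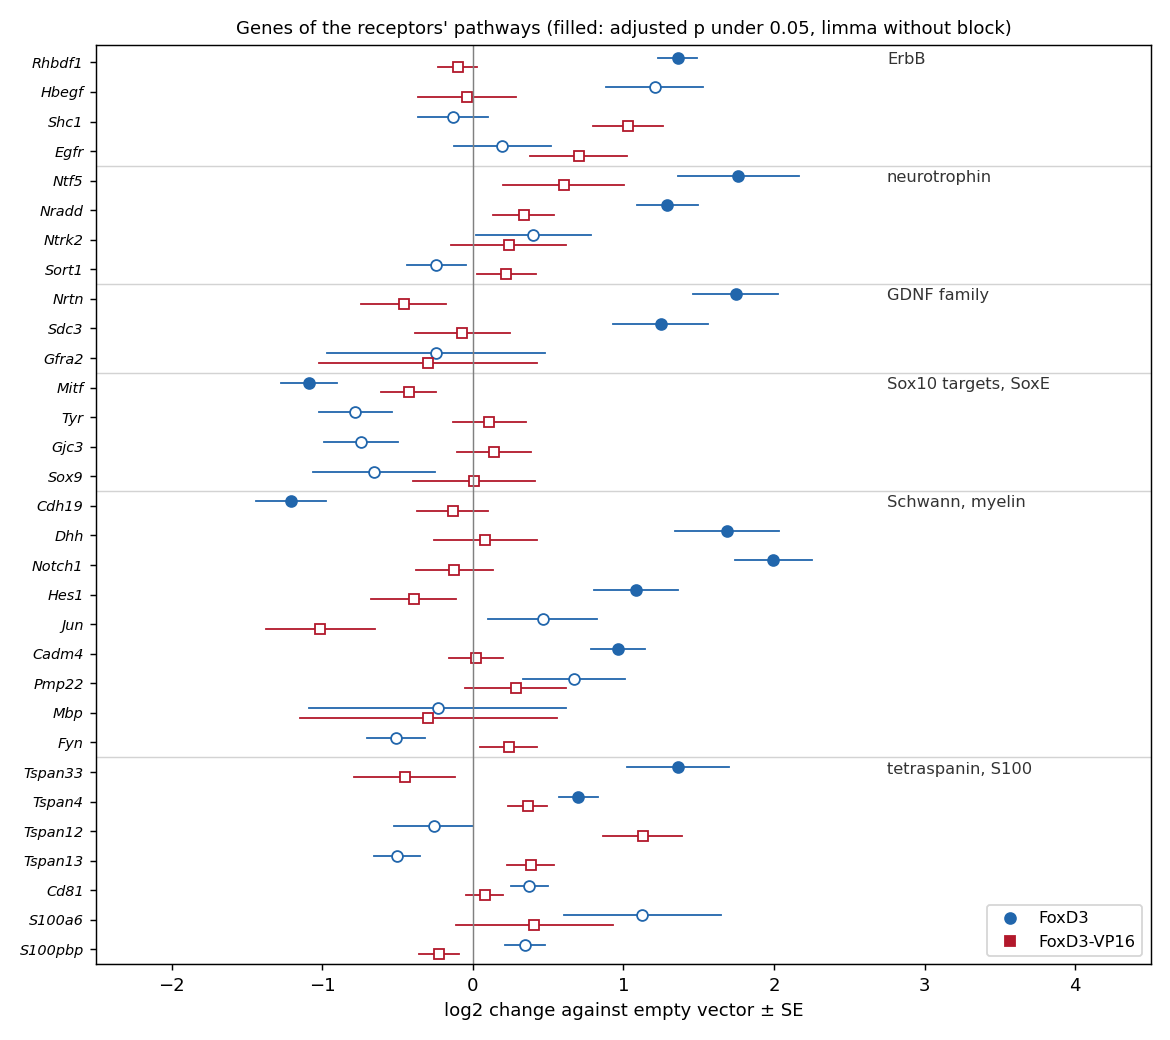
Log2 change ± SE against the empty vector, with FoxD3 (blue circles) and FoxD3-VP16 (red squares), of genes of the receptors' pathways, grouped by list; filled points passed limma without the block. The filled points are all blue: Rhbdf1, Ntf5, Nradd, Nrtn, Sdc3, Dhh, Notch1, Hes1, Cadm4, Tspan33 and Tspan4 on the right, Mitf and Cdh19 on the left.

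Other cell types were followed by their markers too. Neuron markers had 1 of 4 tested higher with FoxD3, Prph, and 9, 8 and 9 of 12 were under the limit in the 3 groups. Prph was under the limit on average with the empty vector and with FoxD3-VP16. It was tested only through its level with FoxD3, so its calls are a description. Of the 5 tested endothelial, leukocyte and keratinocyte markers 0 changed in limma without the block and 0 had an unadjusted p under 0.05 in any comparison. With the block 1 endothelial marker was lower with FoxD3-VP16, both against the empty vector and against FoxD3. Of these markers 6 to 8 of 8, 7 of 10 and 7 to 8 of 9 were under the limit. The 7 Schwann markers analysed, which include S100b, summed to 8169 to 19320 with the empty vector, 4482 to 10710 with FoxD3 and 8208 to 15980 with FoxD3-VP16. A linear sum weighs the brightest markers most, so it does not describe the markers as a set. With FoxD3 the changes were -1.21 for Cdh19, which alone passed, -0.33 for S100b, -0.23 for Mbp and 0.67 for Pmp22. Mbp also differed mainly by replicate number, as given above.

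The genes whose pattern was most like that of each rising member were found by Pearson correlation over the 12 arrays, after the mean of the 3 arrays of a number was subtracted; all genes share these arrays and the values hold the differences between the 3 transfections, so this is a description. For Sox10 they were Ccdc137 (0.986), Tmc6 (0.983) and Rpp25l (0.982), and Erbb3 came 24th at 0.966. For Erbb3 they were Dgkh (0.992), Agpat1 (0.985) and Rhob (0.982). For Ngfr they were Sdc3 (0.995), Cadm4 (0.993) and Ccdc88c (0.989), for Cnp Timm29 (0.993), Mast3 (0.989) and Inf2 (0.989), and for Cd9 8430429K09Rik (0.994), Triobp (0.989) and Adam15 (0.989). Sox10 and Erbb3 are also the members whose arrays with FoxD3-VP16 all lay below those with the empty vector. Ngfr, Cnp and Cd9 correlated at 0.908 to 0.935 with each other, and their ranges with FoxD3-VP16 and the empty vector overlapped. Many other genes were closer to each of them. For Ngfr, Cnp came 263rd and Cd9 390th. For Cnp, Cd9 came 202nd and Ngfr 249th, and for Cd9, Cnp came 116th and Ngfr 250th. With Sox10, S100b correlated at -0.899, Erbb2 at 0.0935 and Gfra1 at -0.347.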

How the data were processed

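The 12 samples are 1-colour Affymetrix arrays of 45101 probe sets, 1 per sorted sample. The authors deposited intensity values per probe set, made with MAS5 per the submitters' processing notes, in which no version is given. A label names dChip instead, and the values were used as linear intensity. Each array is scaled to the same trimmed mean (500.003 to 500.004, leaving out 2% at each end), so depth has no counterpart here. Precision is bounded by how many arrays there are. Equal trimmed means did not make the arrays alike. Before quantile normalization the median log2 level of the arrays numbered 1 was 6.75 (empty vector), 6.74 (FoxD3) and 6.94 (FoxD3-VP16). On all other arrays it was 6.15 to 6.28. The arrays numbered 1 thus differed as whole arrays, and the cause was not tested. From the deposited intensity values, log2(intensity + 16) was taken and quantile-normalized. Probe sets were named through the platform's annotation: 34945 had 1 gene symbol, 932 had several, 9160 were not listed, and 64 were controls left out of the fits. Each gene was given its brightest probe set by mean, the dimmest 40% of genes (mean under 5.98) were left out, and limma 3.58.1 (R 4.3.3; lmFit, eBayes with trend) was fitted to all 12 arrays, with Benjamini-Hochberg adjustment over 10916 genes. A second fit took 20967 probe sets (limit 5.88).

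The titles give all groups the replicate numbers 1 to 4. Residuals of arrays with the same number correlated at 0.369 to 0.672 in 12 pairs, against -0.511 to 0.118 in 30 pairs with other numbers, and 0.370 to 0.536 in the 6 pairs of numbers 3 and 4. Arrays of the same number thus went together, and a fit with the number as a block was the alternative. The check does not separate numbers 3 and 4 from each other, so the 4 numbers may not be 4 independent pairs. The pairing comes from this check, not from a stated shared culture or day.

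The 8 genes and the gene lists were chosen with earlier results of these data known. Named from each list were the 4 largest changes among called genes per comparison, plus 22 partners and relatives of the members taken by role. Promoter sequences came from RefSeq's table for GRCm38.p6, with entries for 6 of the 8 genes. Alternatives varied the pseudocount, filter, probe set choice, normalization, weights, samples and block.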

Additional observations from a re-analysis of the deposited data

Results flagged for a closer look

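Of the 54 groups of 4 arrays (18 member probe sets in 3 groups), 5 had 1 array farther from the other 3 than Dixon's 95% critical value of 0.829 times the range allows; chance flags about 1 group in 20. Among the brightest probe sets it was Cd9 alone: array 1 of the empty vector stood at a log2 level of 9.7015, below the others at 10.3355 to 10.4327. In 1424985_a_at of Sox10 array 1 of the empty vector stood at 10.5947, above 9.6146 to 9.7446. In 1418980_a_at of Cnp array 1 with FoxD3 stood at 10.7639, above 9.3072 to 9.4691. The 2 others were dim probe sets that were not tested: 1421241_at of Ngfr at 5.3895 on array 1 with FoxD3-VP16 (others 4.1637 to 4.2611) and 1452482_at of Erbb3 at 5.4037 on array 4 of the empty vector (others 4.2257 to 4.2803). In 4 of the 5 the array carries the number 1. Without the 3 arrays numbered 1, the same comparison with FoxD3 called 6 members in place of 5, while the calls over all genes went from 438 to 870.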

How the results depend on the processing

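Sox10, Erbb3 and Cnp kept their direction with FoxD3 and between the constructs under all 23 alternatives run. Ngfr did so in the 21 in which it was tested. The count of members called with FoxD3 (5) was 3 with the mean of all probe sets and 4 to 5 when 1 array was left out. With that mean Ngfr was not tested and Erbb3 did not pass. With FoxD3-VP16 (1) it was 0 with the mean of all probe sets and with only the 2 groups fitted, 3 with the replicate block, 4 with array weights and 0 to 1 without 1 array. Of all 10916 tested genes the block called 1217 and the weights 3465, against 65 in the fit without either. Between the constructs (4) the count of members was 7 with array weights and 4 to 6 without 1 array. The weights raised the calls over all genes there too, as given below. Among the 8 genes the block changed the calls of Erbb3 and S100b with FoxD3-VP16 and of Cd9 and S100b between the constructs, and no other. Over member probe sets the block, added after seeing the data, gave 4 in place of 1 with FoxD3-VP16 and 11 in place of 6 between the constructs. With the block 6.75% and 24.4% of all probe sets were called in these 2 comparisons.

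Over all genes the calls with FoxD3 (438) were 274 with the dimmest 60% left out, 2297 with the block, 4193 with array weights, 870 without the arrays numbered 1 and 197 to 555 without 1 array. With FoxD3-VP16 (65) they were 1217 with the block, 3465 with weights, 277 without the arrays numbered 1, 20 with only the 2 groups and 13 to 82 without 1 array. Between the constructs (1045) they were 3498, 4455 and 1815 with the block, weights and without the arrays numbered 1, and 602 to 1214 without 1 array. The cause was not tested.

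Changes near 0 turned in sign. Gfra1 with FoxD3 was -0.016 with a pseudocount of 1 and ranged from -0.15 to 0.32 without 1 array. With weights it was 0.59 (limma adjusted p = 0.0518). Ngfr with FoxD3-VP16 was 0.19 with weights and ranged from -0.37 to 0.31 without 1 array. Erbb2 between the constructs was -0.022 with a pseudocount of 64, -0.077 as deposited, -0.52 with weights (adjusted p = 0.0207), -0.51 without the arrays numbered 1 and from -0.42 to 0.21 without 1 array. The number of arrays and, for Ngfr and Gfra1, levels near the floor limit what could be detected.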
